A study of Mus musculus with 8 samples.

Results

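The metabotropic glutamate receptor genes Grm2, Grm3, Grm4, Grm5, Grm7 and Grm8 were described in mouse embryos that lack the zinc-finger transcription factor Prdm12. They are 6 of the 38355 genes counted in each library, found by matching Ensembl identifiers to symbols, and all 6 passed the filter on low counts. The family was chosen by a measured value: the fall of Grm2 between genotypes in these same libraries, with the other 5 genes taken as its paralogues. The difference between genotypes in these 6 genes is therefore given as a description: no p-value is printed for it, and nothing is read from which of them passed the threshold of the fit over all genes. RNA came from thoracic dorsal root ganglia, where the cell bodies of somatosensory neurons lie, dissected with the attached spinal cord from C57Bl6 embryos at E11.5. A group of 4 Prdm12-/- libraries (KO) was set against a group of 4 wild-type libraries (WT), and no other allele or agent is named in the labels. The design text of the series mentions triplicates, yet 4 libraries carry each genotype label, and all 8 were used. They do not say which part of Prdm12 was deleted, nor whether a library came from 1 embryo or a pool, so p-values here weigh the genotypes against the spread between libraries, which may be technical.

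Metabotropic glutamate receptors are G-protein-coupled receptors of class C that sense glutamate with a large extracellular domain and act as dimers. Grm5 belongs to group I, which couples mainly to Gq and phospholipase C. Group II (Grm2 and Grm3) and group III (Grm4, Grm6, Grm7 and Grm8) couple to Gi/o, lower cyclic AMP, and in mature neurons often sit on axon terminals where they restrain transmitter release. In adult sensory ganglia, group II receptors are known for reducing the excitability of pain-sensing neurons.

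Library totals lay between 23088908 and 28500792 counts, except WT replicate 1 with 67782435. Values are CPM, counts scaled to TMM-adjusted library sizes. Prdm12 had 1.55, 1.52, 0.975 and 0.962 CPM in KO replicates 1 to 4, against 22.2, 37.9, 39.6 and 31.95 CPM in WT replicates 1 to 4 as labelled. WT replicate 1 also stood apart in the summed level of 16 sensory neuron marker genes, at 558 CPM where WT replicates 2 to 4 held 719 to 756 CPM, so results are given with and without it where it matters. No sensory neuron, spinal neuron, crest or progenitor marker on the lists was at 0 counts in any library.

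Grm2 (ENSMUSG00000023192, mm10 chromosome 9, 106643095 to 106656082, minus strand) was the most abundant of these genes and the one that differed most between genotypes. It encodes mGlu2, a group II receptor. It stood at 20.9, 15.3, 17.4 and 17.4 CPM in KO replicates 1 to 4, against 34.8, 28.4, 35.5 and 34.9 CPM in WT replicates 1 to 4. Every KO library lay below every WT library. These values rest on 578, 382, 463 and 397 reads in KO and on 2345, 770, 905 and 991 reads in WT. The means were 17.7 ± 2.32 CPM in KO and 33.4 ± 3.34 CPM in WT (SD, n = 4 each), so that KO held 53.1% of the WT level. The log2 fold change was -0.91 (SE 0.10).

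Of the 6 members, 1 passed the threshold of 0.05 on the adjusted p of edgeR's quasi-likelihood test, namely Grm2, and 0.243% of the 16068 tested genes passed in that direction. Nothing is read from that count, since the choice of the family used it. Without WT replicate 1 the log2 fold change of Grm2 was -0.88 (SE 0.11), and over all 8 fits that each left out 1 library it lay between -1.004 and -0.85. With a score of muscle and mesenchyme markers as a covariate it was -0.73 (SE 0.14), and Grm2 then did not pass the threshold.

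The 250 bases before the RefSeq start of Grm2, of its group II partner Grm3 and of Grm8 are shown because these genes had different levels and different genotype contrasts. They come from the RefSeq table of GRCm38.p6, the assembly of mm10, which held entries for 5 of the 7 genes described (the 6 members and Grm6), and are written 5′ to 3′ on the gene's strand, with the letters GGGCGG (the GC box, searched on both strands as GGGCGG or CCGCCC) in capitals. Grm8 had 3 entries there, and the one starting nearest the annotated start of the gene was taken. The windows are chr9:106656110-106656359 (minus strand), chr5:9725353-9725602 (minus strand) and chr6:28135147-28135396 (minus strand).
Grm2: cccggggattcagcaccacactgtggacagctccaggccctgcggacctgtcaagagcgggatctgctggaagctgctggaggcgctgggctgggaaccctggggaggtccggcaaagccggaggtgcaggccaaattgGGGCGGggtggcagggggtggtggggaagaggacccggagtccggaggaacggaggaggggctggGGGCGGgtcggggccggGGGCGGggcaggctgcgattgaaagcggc
Grm3: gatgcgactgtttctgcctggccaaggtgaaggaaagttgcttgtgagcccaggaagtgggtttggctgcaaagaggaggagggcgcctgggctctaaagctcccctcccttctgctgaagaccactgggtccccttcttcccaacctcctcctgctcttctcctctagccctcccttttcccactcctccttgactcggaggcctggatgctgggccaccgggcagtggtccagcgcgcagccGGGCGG
Grm8: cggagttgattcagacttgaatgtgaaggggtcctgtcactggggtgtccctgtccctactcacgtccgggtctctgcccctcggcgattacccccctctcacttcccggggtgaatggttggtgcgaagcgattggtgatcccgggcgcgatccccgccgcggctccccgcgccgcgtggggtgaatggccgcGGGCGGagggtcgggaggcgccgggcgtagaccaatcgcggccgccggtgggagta
The Grm2 window held the GC box 3 times, and the Grm3 and Grm8 windows 1 time each. Of 32851 upstream windows of this length in the table, 32.7% held it at least once. The E-box CANNTG, the letters bound by basic helix-loop-helix factors, occurred 0 times in each of the 3 windows, and 66.2% of all windows held it. Of the windows not shown, that of Grm6 held 0 GC boxes and 1 E-box, and that of Grm7 held 1 GC box and 0 E-boxes. The G and C share was 71.2% before Grm2, 62.4% before Grm3 and 68.4% before Grm8. These are descriptions of the letters in the windows and say nothing of binding.

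Between genes, levels were compared per kilobase of merged exons. Grm2 led with 3.62 ± 0.474 CPM per kb in KO and 6.83 ± 0.683 CPM per kb in WT (SD, n = 4 each). Grm4, a group III receptor gene, followed at 1.29 ± 0.0772 CPM per kb in KO and 1.61 ± 0.0340 CPM per kb in WT, and Grm3 at 1.41 ± 0.196 CPM per kb in KO and 1.43 ± 0.360 CPM per kb in WT (SD, n = 4 each). The libraries of Grm4 and Grm3 overlapped in both genotypes, so these neighbours were not separable on this length. With the longest transcript as the length, Grm4 lay between 2.04 and 2.14 CPM per kb in WT, above Grm3 at 1.04 to 1.78 CPM per kb in WT, whereas in KO the 2 genes still overlapped, at 1.57 to 1.798 CPM per kb for Grm4 and 1.22 to 1.66 CPM per kb for Grm3. Those of Grm2 lay above all of theirs in both genotypes.

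**Figure D1:**
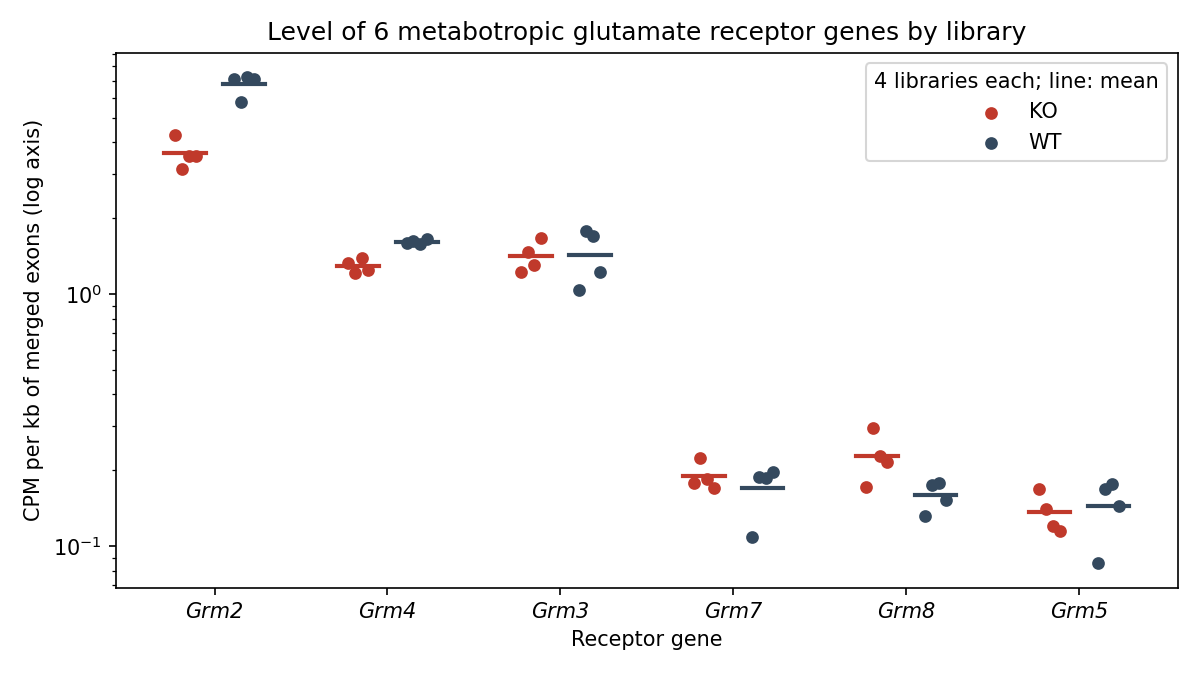
Level of the 6 receptor genes in CPM per kb of merged exons (log axis), each point 1 library, KO left of WT, with a line at the mean of 4 libraries. Grm2 lies above the other genes in both genotypes and its KO points, up to 4.27 CPM per kb, lie below its WT points, which start at 5.80 CPM per kb.

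The remaining members were far lower. Grm7 had 0.189 ± 0.0240 CPM per kb in KO and 0.170 ± 0.0414 CPM per kb in WT, Grm8 had 0.228 ± 0.0511 CPM per kb in KO and 0.160 ± 0.0215 CPM per kb in WT, and Grm5 had 0.136 ± 0.0244 CPM per kb in KO and 0.144 ± 0.0411 CPM per kb in WT (SD, n = 4 each). Their WT libraries overlapped between neighbours in the order, so Grm7, Grm8 and Grm5 did not differ in WT beyond their spread. For Grm7 and Grm8 that overlap rests on WT replicate 1: in WT replicates 2 to 4 Grm7 had 0.186 to 0.197 CPM per kb and Grm8 0.153 to 0.178 CPM per kb, without overlap. In KO, Grm8 and Grm5 did not overlap, by a narrow gap of 0.172 against 0.169 CPM per kb. The order among these 3 depends on the gene model: with the longest transcript as the length, Grm8 had a mean of 0.469 CPM per kb in KO and 0.329 CPM per kb in WT, above Grm7 at 0.265 CPM per kb in KO and 0.238 CPM per kb in WT. On that length the WT libraries of Grm8 and Grm7 overlapped, at 0.272 to 0.368 and 0.152 to 0.276 CPM per kb. Their KO libraries did not, at 0.354 to 0.609 and 0.239 to 0.314 CPM per kb.

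Grm6, a group III gene of the same family, did not pass the filter. Known from the ON bipolar cells of the retina, it had 6, 5, 7 and 0 reads in KO replicates 1 to 4 and 5, 3, 3 and 3 reads in WT replicates 1 to 4. In KO replicate 4 a count of 0 allows up to 3 reads, which is 0.131 CPM, so a level below that was not detectable (counting error only).

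Among the paralogues, Grm4 (ENSMUSG00000063239, chromosome 17, 27422387 to 27521403) was the other member whose genotypes did not overlap. It had 7.91, 7.25, 8.29 and 7.48 CPM in KO replicates 1 to 4, against 9.54, 9.74, 9.41 and 9.86 CPM in WT replicates 1 to 4. The log2 fold change was -0.32 (SE 0.08). Both Grm2 and Grm4 thus lay lower in every KO library, 2 of 6 members, while 2.45% of all tested genes had groups that did not overlap in that direction. In the other direction it was 0 of 6 members and 1.69% of tested genes, and in either direction 2 of 6 members and 4.14% of tested genes. These counts come from the contrast used for the choice.

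Grm3 (ENSMUSG00000003974, chromosome 5, 9485541 to 9725170), which encodes the other group II receptor, had 3.72, 4.48, 3.97 and 5.07 CPM in KO replicates 1 to 4, against 3.16, 5.42, 5.17 and 3.73 CPM in WT replicates 1 to 4. The KO values lay inside the WT range and the log2 fold change was -0.01 (SE 0.18). WT replicates 1 and 4 were low and WT replicates 2 and 3 high, a spread of the WT libraries wider than that of KO. In the fit with the muscle and mesenchyme covariate the log2 fold change of Grm3 was -0.53 (SE 0.19).

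Grm8 (ENSMUSG00000024211, chromosome 6, 27275119 to 28135178), a group III gene, had a fold change of the opposite sign. It had 1.70, 2.92, 2.25 and 2.14 CPM in KO replicates 1 to 4, against 1.31, 1.73, 1.76 and 1.51 CPM in WT replicates 1 to 4. KO replicates 2, 3 and 4 lay above every WT library and KO replicate 1 did not. Its log2 fold change was 0.53 (SE 0.19). It stood on 47 to 73 reads a library in KO and 43 to 88 reads in WT.

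Grm5 (ENSMUSG00000049583, chromosome 7, 87584168 to 88134907), the member from group I, had 1.73, 1.44, 1.24 and 1.18 CPM in KO replicates 1 to 4, against 0.876, 1.73, 1.803 and 1.48 CPM in WT replicates 1 to 4, a log2 fold change of -0.02 (SE 0.25). Grm7 (ENSMUSG00000056755, chromosome 6, 110645581 to 111567230), a group III receptor gene of axon terminals, had 1.05, 1.32, 1.09 and 1.01 CPM in KO replicates 1 to 4, against 0.639, 1.11, 1.10 and 1.16 CPM in WT replicates 1 to 4, a log2 fold change of 0.21 (SE 0.23). In both genes WT replicate 1 was the lowest library and the genotypes overlapped. With SEs of this size the libraries do not separate a small change from none.

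**Figure D2:**
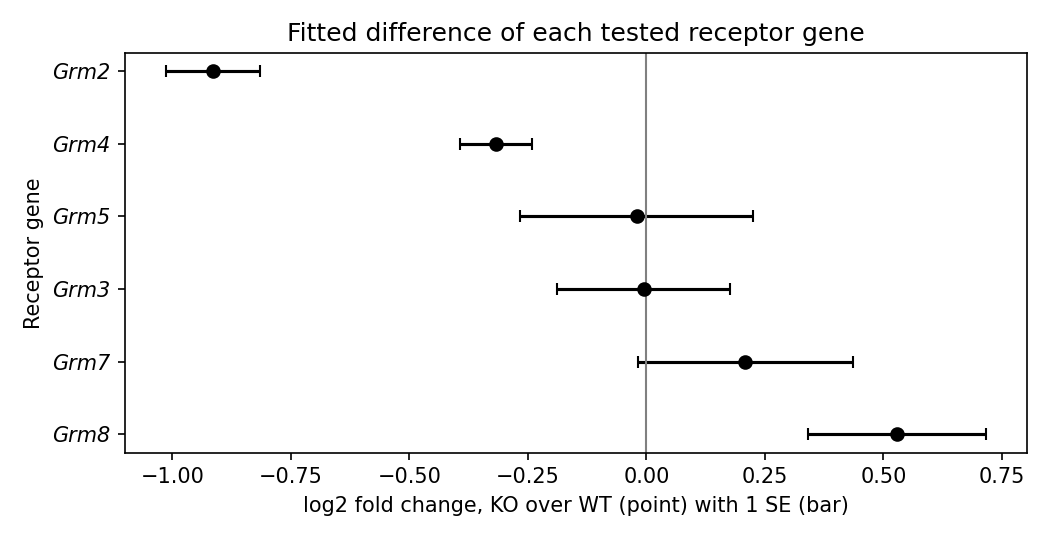
Fitted log2 fold change, KO over WT, of the 6 tested receptor genes (points) with 1 SE on either side (bars). Grm2 lies at -0.91, Grm4 at -0.32, Grm5 and Grm3 near 0, Grm7 at 0.21 and Grm8 at 0.53.

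Set against each of its paralogues, Grm2 was on average lower in KO than in WT. The log2 fold change of Grm2 minus the median of its 5 paralogues was -0.91, between -1.10 and -0.74 when 1 library at a time was left out. Per kilobase, Grm2 stood on average (the mean of log2 ratios) 2.79-fold above Grm4 in KO and 4.22-fold above it in WT, and the log2 ratios of the 4 KO libraries did not overlap those of the 4 WT libraries. Against Grm3 it stood 2.56-fold higher in KO and 4.86-fold higher in WT, here with overlap, since the log2 ratio was 1.81 in KO replicate 1 and 1.71 in WT replicate 2. Against Grm8 the ratio was 16.1-fold in KO and 42.9-fold in WT, the widest of the 5 contrasts at -1.41 on the log2 scale.

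The make-up of the summed receptor level carries the Grm2 contrast used for the choice, so the shares are given as a description. Grm2 made up 57.9%, 48.0%, 52.0% and 50.9% of the summed level of the 6 members and Grm6 per kilobase in KO replicates 1 to 4, against 70.5%, 59.4%, 65.4% and 67.8% in WT replicates 1 to 4. The highest KO share lay below the lowest WT share. Group II as a whole held 72.8% ± 2.18 in KO and 79.7% ± 1.48 in WT, group III 25.3% ± 2.17 in KO and 19.0% ± 1.27 in WT, and Grm5 1.97% ± 0.307 in KO and 1.39% ± 0.388 in WT (SD, n = 4 each). The summed level without Grm2 was 3.29 ± 0.141 CPM per kb in KO and 3.54 ± 0.450 CPM per kb in WT (SD, n = 4 each), and these libraries overlapped. With Grm2 it was 6.91 ± 0.359 CPM per kb in KO and 10.4 ± 0.569 CPM per kb in WT (SD, n = 4 each), without overlap. KO minus WT was -0.25 CPM per kb without Grm2 and -3.45 CPM per kb with it.

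**Figure D3:**
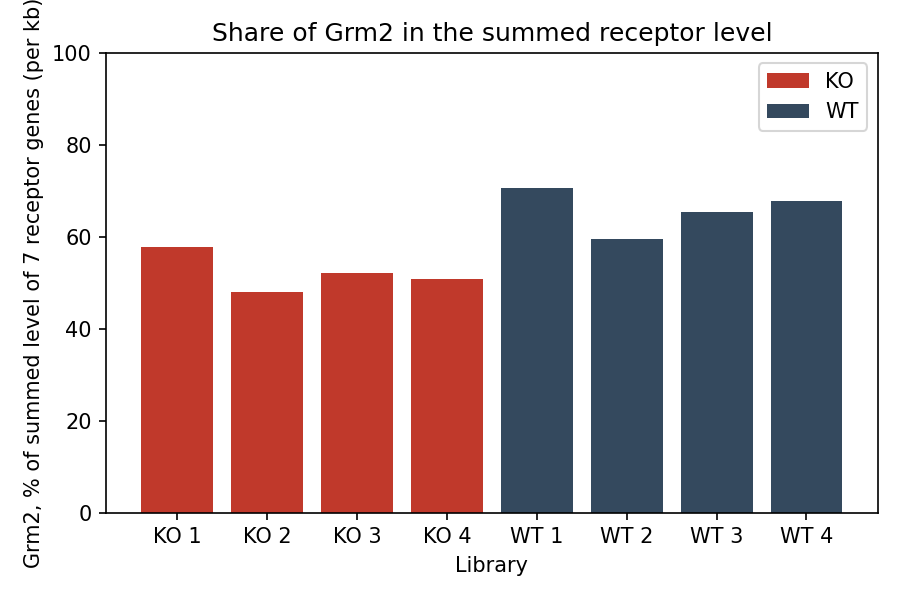
Share of Grm2 in the summed level of 7 genes, the 6 members and Grm6, per kb (%, bars from 0), 1 bar a library, KO left and WT right. The KO bars lie between 48.0% and 57.9% and the WT bars between 59.4% and 70.5%.

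The tissue holds several cell types, and in such bulk samples fewer cells of a type and less RNA per cell cannot be told apart. The 16 sensory neuron markers summed to 529 to 612 CPM in KO and 558 to 756 CPM in WT, with 3 of 16 lower by the test (Tlx2, Pou4f1 and Eya2), 0 higher and a median log2 fold change of -0.36, beside 0.243% of tested genes called lower and a median of -0.003 over all of them. At an unadjusted p under 0.05, 10 of the 16 were lower and 0 higher by edgeR, and DESeq2 called 6 and limma-voom 7. Over all 16068 tested genes, 533 were lower and 487 higher at that unadjusted p by edgeR, and DESeq2 called 103 and limma-voom 115. The marker lists, here and below, were chosen with earlier results of these data known, so nothing is read from these shares. Grm2 did not follow the sensory sum in every library. WT replicate 1, with a sensory sum inside the KO range, had 34.8 CPM of Grm2, close to WT replicates 3 and 4, while KO replicate 2 had the highest sensory sum of the KO libraries and the lowest Grm2. Per 100 CPM of sensory markers, Grm2 had 3.56, 2.50, 3.16 and 3.28 CPM in KO replicates 1 to 4, against 6.24, 3.85, 4.69 and 4.85 CPM in WT replicates 1 to 4, without overlap. Per 100 CPM of macrophage markers the genotypes did not overlap either, at 28.8 to 39.8 CPM in KO and 55.4 to 78.2 CPM in WT. Such ratios, and the single libraries named above, carry the Grm2 contrast used for the choice. Nothing about sensory neurons is read from either. The part of these neurons in the Grm2 difference was not tested.

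**Figure D4:**
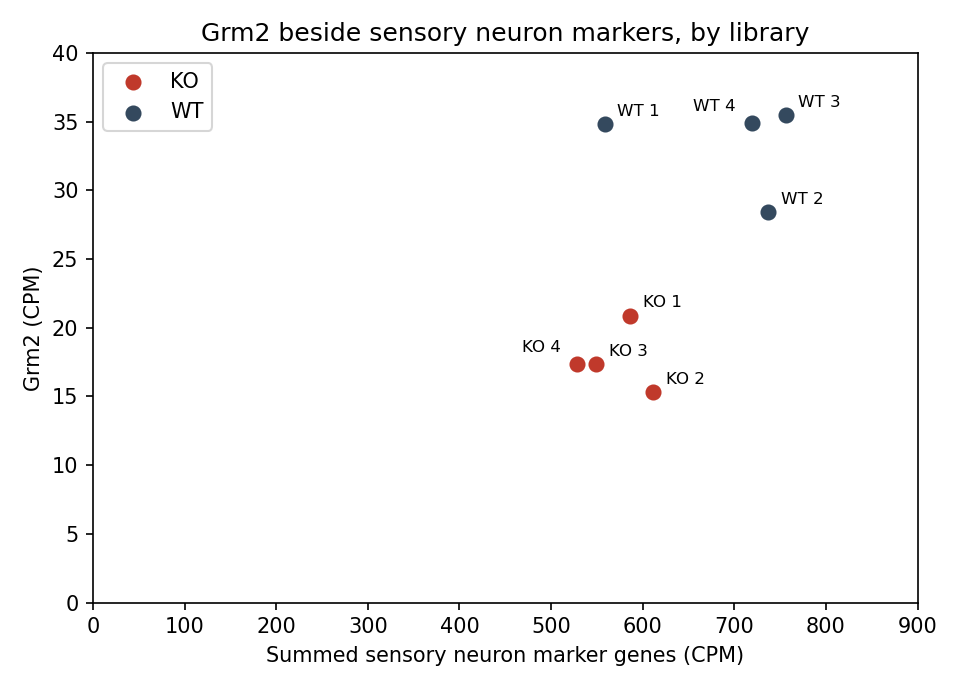
Grm2 (CPM) against the summed level of 16 sensory neuron marker genes (CPM), 1 labelled point per library, both axes from 0. WT 1 has a marker sum like those of the KO libraries, at 558 CPM, and Grm2 at 34.8 CPM. The KO libraries have Grm2 between 15.3 and 20.9 CPM.

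The summed markers of other cell types overlapped between genotypes for muscle, mesenchyme, pan-neuronal and crest and glial genes, and for progenitor genes the highest KO library lay just below the lowest WT library. The 10 muscle markers summed to 893 to 1308 CPM in KO and 808 to 964 CPM in WT, and the 11 mesenchyme markers to 2955 to 3271 CPM in KO and 2323 to 3090 CPM in WT, with 0 of either list passing (10 of 10 and 11 of 11 with a positive fold change). At an unadjusted p under 0.05, 7 muscle and 1 mesenchyme genes were higher and none lower by edgeR, and DESeq2 called 0 of both lists. Over all 16068 tested genes it was 487 higher and 533 lower by edgeR. The 11 pan-neuronal markers summed to 4330 to 4833 CPM in KO and 4613 to 5366 CPM in WT, the 10 crest and glial markers to 717 to 890 CPM in KO and 826 to 908 CPM in WT, and the 12 progenitor markers to 2825 to 2961 CPM in KO and 2963 to 3267 CPM in WT. By the test 0 of 11 pan-neuronal and 0 of 12 progenitor markers passed, and of the crest and glial markers 1 was higher (Egr2, log2 fold change 1.08, SE 0.13) and 1 lower (Foxd3, -0.57, SE 0.09). At an unadjusted p under 0.05, 7 of 11 pan-neuronal markers were lower and 0 higher by edgeR, where DESeq2 called 1, and 2 progenitor markers were lower and 1 higher, where DESeq2 called 0. Per 100 CPM of pan-neuronal markers Grm2 had 0.392 ± 0.0578 CPM in KO and 0.657 ± 0.0855 CPM in WT (SD, n = 4 each), again without overlap of the libraries. This ratio has the same limit as the one to sensory markers. The part of these cell types in the Grm2 difference was not tested. The fit with the muscle and mesenchyme score above cannot decide it, since that score nearly followed genotype.

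Neighbours of Grm2 on chromosome 9 did not pass the test. Of 17 counted genes within 200 kb, 10 were tested and 0 passed by edgeR, with log2 fold changes between -0.11 and 0.15. The nearest tested gene, Tex264, an endoplasmic reticulum protein that takes part in autophagy, lies 2664 bp away (106658746 to 106685927) and differed by 0.07 on the log2 scale (edgeR adjusted p = 0.959). Gm28111, an antisense gene annotated over 470 exonic bases of Grm2, was not among the counted genes, and whether counting used strand is not given in the sources used here, so its reads cannot be told apart from those of Grm2. No stretch of 50 bases was shared between the annotated transcripts of any 2 of these 7 genes, the 6 members and Grm6 (0 over 21 pairs), so a read that long that matches the reference belongs to 1 of them.

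The genes around these receptors were examined in 6 lists: other class C receptors, Gi/o and Gq signalling, desensitisation, scaffolds, and glutamate or NAAG supply. Of 108 tested genes 2 fell and 0 rose, which is 1.85% beside 0.299% of all tested genes in either direction, and the median log2 fold change was -0.01. Both that fell were known from earlier results on these libraries, so nothing is read from the share of 1.85%. At an unadjusted p under 0.05, 6 were lower and 2 higher by edgeR, beside 533 lower and 487 higher of all 16068 tested genes. DESeq2 called 2 of the list genes.

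The first was Slc17a7 (VGLUT1), whose product loads glutamate, the ligand of these receptors, into synaptic vesicles. It had 1.99, 1.72, 2.06 and 1.71 CPM in KO replicates 1 to 4, against 3.45, 3.76, 3.25 and 3.98 CPM in WT replicates 1 to 4, without overlap, a log2 fold change of -0.94 (SE 0.13, edgeR adjusted p = 0.0100), and 19 other genes of the supply and clearance list did not pass. It did not pass without KO replicate 2, KO replicate 4 or WT replicate 4 (edgeR adjusted p = 0.0508, 0.0538 and 0.0564). It stood on 39 to 55 reads a library in KO and 83 to 232 reads in WT. Slc17a6 (VGLUT2), on the same list, had 49.2 ± 4.89 CPM in KO and 52.6 ± 5.60 CPM in WT (SD, n = 4 each). Its genotypes overlapped, with a log2 fold change of -0.09 (SE 0.09).

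The second was Rgs4, which speeds up the switching-off of Gi/o and Gq proteins. It had 23.8, 29.1, 27.6 and 23.0 CPM in KO replicates 1 to 4, against 36.6, 53.2, 54.3 and 49.2 CPM in WT replicates 1 to 4, again without overlap. The log2 fold change was -0.90 (SE 0.13, edgeR adjusted p = 0.0208). Rgs4 was lowest in WT replicate 1 within its group, unlike Grm2 and Slc17a7. Its adjusted p was 8.31e-05 without that library and lay between 0.0560 and 0.112 when any other single library was left out.

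**Figure D5:**
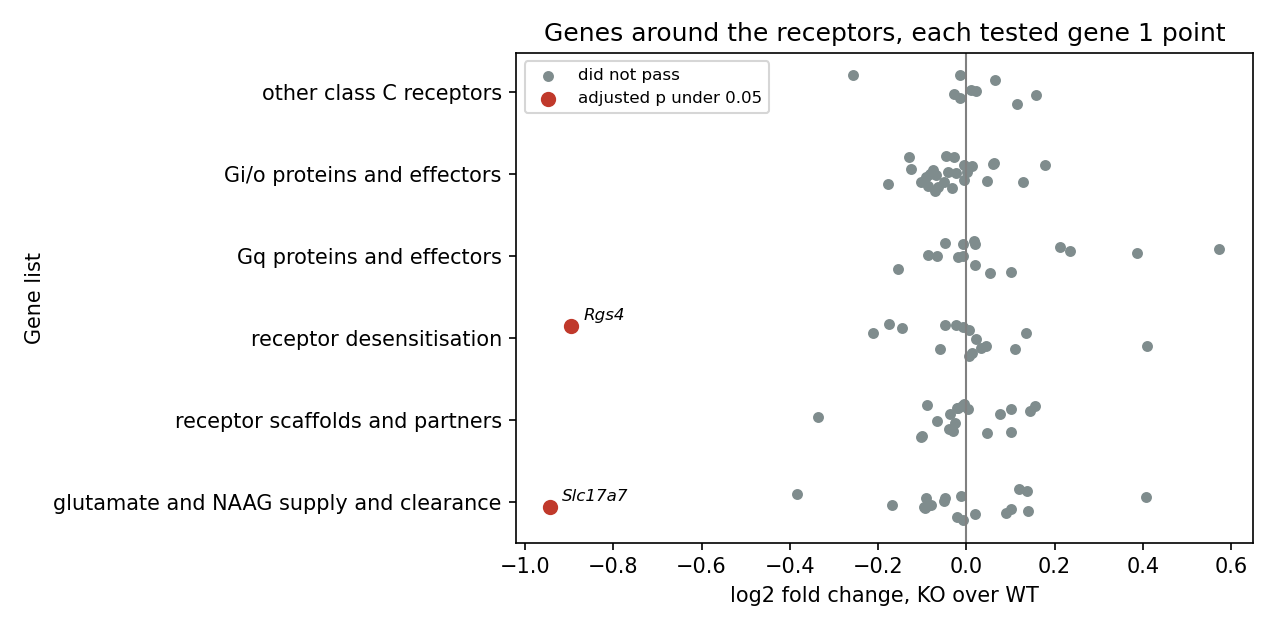
Log2 fold change, KO over WT, of the 108 tested genes in 6 lists around the receptors, each gene 1 point at a vertical position drawn at random within its list. Rgs4 (-0.90) and Slc17a7 (-0.94) passed an adjusted p of 0.05 and stand apart from the grey points.

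The transducers to which the receptors couple did not pass. In the Gi/o list 0 of 26 tested genes passed, with a median log2 fold change of -0.04, and its smallest p values belonged to Gnai1, an inhibitory G-protein alpha subunit (-0.10, SE 0.06), Gnb5, a beta subunit (0.13, SE 0.08), and Cacna1b, the N-type calcium channel (-0.18, SE 0.11). In the Gq list 0 of 16 passed, with a median of 0.02, led by the phospholipase gene Plcb2 (0.39, SE 0.16), the IP3 receptor gene Itpr3 (0.23, SE 0.11) and the cation channel gene Trpc5 (0.57, SE 0.29). At an unadjusted p under 0.05 there were 0 Gi/o genes and 1 Gq gene, and DESeq2 called 0 in both lists. The remaining 16 desensitisation genes did not pass. At an unadjusted p under 0.05, 3 of the 17 tested genes of that list were lower, Rgs4 among them, and 1 was higher by edgeR. DESeq2 called 1 of them.

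Among 20 scaffold and partner genes 0 passed, with Grasp, which encodes the receptor scaffold tamalin, at 22.8 ± 1.07 CPM in KO and 28.8 ± 3.803 CPM in WT (SD, n = 4 each; log2 fold change -0.34, SE 0.09, edgeR adjusted p = 0.368). Without WT replicate 1 its log2 fold change was -0.42 and it passed (edgeR adjusted p = 0.00605). Elfn1, an adhesion protein that binds group III receptors across the synapse, had a log2 fold change of 0.16 (SE 0.07), and Grip1, a PDZ scaffold, -0.10 (SE 0.06). Of 9 other class C receptor genes 0 passed. The smallest p values there were those of the orphan receptor gene Gprc5c (0.07, SE 0.05), the GABA-B subunit gene Gabbr2 (-0.26, SE 0.23) and the taste receptor gene Tas1r1 (0.16, SE 0.19). At an unadjusted p under 0.05 there were 1 scaffold gene and 0 class C genes, and DESeq2 called 0 in both lists.

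Over the 8 libraries, the genes whose log2 CPM followed Grm2 most closely among 14284 genes of at least 1 CPM were Slco4a1, an organic anion transporter gene (Pearson r = 0.98), the non-coding F730016J06Rik (0.98), Carhsp1, an RNA-binding protein gene (0.97), Neurog1, a factor that starts sensory neurogenesis (0.97), and Rap1gds1 (0.97). These r values contain the difference between genotypes and share library depth. Neurog1 had 28.0 ± 2.62 CPM in KO and 39.2 ± 2.07 CPM in WT (SD, n = 4 each). WT replicate 1 held 37.2 CPM and WT replicates 2 to 4 held 38.1 to 42.0 CPM. The gap below WT replicate 2 is smaller than the WT SD, so the order of these libraries is not read. Once the group means were subtracted, other genes led, namely Kbtbd6 and Tsen15 (r = 0.98 each), Ftsj1 and Dhps (0.96 each) and Mtx1 (0.95). Among the paralogues r with Grm2 over the 8 libraries was 0.93 for Grm4, 0.06 for Grm5, -0.17 for Grm3, -0.42 for Grm7 and -0.86 for Grm8. After subtraction of the group means it was 0.32 for Grm4, 0.002 for Grm5, -0.53 for Grm3, -0.37 for Grm7 and -0.78 for Grm8. With 8 points and so many genes these values rank likeness and are given without a test.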

How the data were processed

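Total RNA was sequenced from 4 KO and 4 WT libraries, grouped by the genotype in the labels. The authors deposited whole-number read counts per gene. Per the submitters' processing notes, reads were handled on build mm10 with STAR (2.3.0e) and featureCounts (1.4.6-p1), and the notes also name FastQC, SAMtools and DESeq2. The sources used here give no settings, annotation release or strand. Each file held 38355 genes and 5 summary rows at 0, which were left out. Symbols, coordinates and exon lengths came from GENCODE M21 (GRCm38), where 36602 identifiers matched and the other 1753 held 0.263% of counts. The list genes Drgx, Naaladl2 and Slc18a3 were not analysed here, and some other genes that the lists held are not reported here.

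KO was set against WT in R 4.3.3 using edgeR 4.0.16 (robust quasi-likelihood F test after filterByExpr and TMM, factors 0.991 to 1.01, group alone, Benjamini-Hochberg adjustment over 16068 genes at 0.05). Each SE is the absolute fold change (log2) over the root of F. Likeness used log2 CPM (prior count 2). The fit was tested on simulated data. Other scalings, other filters, limma-voom (limma 3.58.1), DESeq2 (1.42.0), a replicate block, fits without each library and, added after the data were seen, a muscle and mesenchyme score as covariate and WT replicate 1 thinned to the median total were run as alternatives.

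Every pair of libraries within a genotype differed by more than sampling noise (mean chi-square per gene 4.63 to 22.6), so all 8 were counted. The members and lists were chosen with earlier results of these data known. The text names the 6 members and Grm6, the list genes that passed or, where none did, the 3 with the smallest p in each list, and the 5 genes most like Grm2 by each measure. Sensory, crest and glial markers that passed, Tex264 and Slc17a6 were named after their values were seen. Figures were drawn with matplotlib 3.10.9.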

Additional observations from a re-analysis of the deposited data

Results flagged for a closer look

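Among the 14 sets of 4 libraries for the 6 members and Grm6, 2 held a library far from the other 3, where chance alone gives about 1 in 20. Grm2 had 28.4 CPM in WT replicate 2, and the nearest other WT library had 34.8 CPM. Grm7 had 0.639 CPM in WT replicate 1, and the nearest other WT library had 1.10 CPM. Without WT replicate 2 the log2 fold change of Grm2 was -0.98, and without WT replicate 1 that of Grm7 was -0.0024, beside 0.21 with all 8 libraries.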

How the results depend on the processing

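The log2 fold change of Grm2 kept its sign in all 17 alternatives, between -1.004 and -0.73, and moved by more than the spread of libraries in 1, the muscle and mesenchyme covariate (-0.73). Its difference from the median of the paralogues lay between -1.10 and -0.59. That of Grm4 lay between -0.35 and -0.28 and that of Grm8 between 0.22 and 0.64, whereas Grm3, Grm5 and Grm7 took either sign. Over all genes, 48 passed, against 103 with DESeq2 (22 higher, 81 lower), 115 with limma-voom (20 higher, 95 lower), 16 with the replicate block, 1 with the muscle and mesenchyme covariate (at an unadjusted p under 0.05, 167 higher and 289 lower) and 15 to 133 with 1 library left out, the most without WT replicate 1. The other scalings and filters and the thinned library gave 43 to 71. Of the list genes, 2 passed, against 1 with the replicate block, which lost Slc17a7 (adjusted p = 0.0946), 0 with the covariate (4 at an unadjusted p under 0.05) and 0 to 3 with 1 library left out. The cause of these shifts was not tested. The replicate numbers did not pair the libraries: correlations of same-numbered deviations were -0.11, 0.28, -0.19 and -0.01, and 1 of 8 libraries matched its own number best. With the block, Grm2 had -0.92 (SE 0.07). Depth limits Grm5, Grm6, Grm7 and Grm8, which had at most 88 reads a library.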
